A study of Mus musculus with 12 samples.

Results

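The keratin family was followed across the mammary glands of mice with and without cyclin D1, on placebo or estradiol. Its members were all genes whose symbol on the array is Krt followed only by digits, 44 of the 18193 genes measured, and where a gene had several probe sets the brightest on average over the 12 arrays was used. By known site of expression, 4 were luminal keratins of the gland, 4 were basal keratins and 26 were skin keratins. The 26 comprised 7 of the epidermis, 8 of the hair root sheath and 11 of the hair shaft and nail. Another 4 were keratins of mucosa and cornea, and 6 fell in none of these classes.

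The mice were virgin females on a C57BL/6 background, either Ccnd1+/+ (called wildtype below) or Ccnd1-/- (called knockout), the latter lacking cyclin D1 in every tissue. All had been ovariectomized, so the placebo groups had no ovarian estradiol either. Placebo, or a pellet of 0.72 mg estradiol made for release over 60 days, was then given for 7 days. The series description gives separate animals, 3 for each of wildtype placebo, wildtype estradiol, knockout placebo and knockout estradiol, with 1 array each. The labels state neither age, nor which gland was taken, nor whether its lymph node was removed, and they name no batch.

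Keratins are the intermediate filament proteins of epithelial cells. A filament needs an acidic (type I) and a basic (type II) keratin, so cells express them in partner pairs: Krt8 with Krt18 or Krt19 in simple and luminal epithelium, Krt5 with Krt14 in basal and myoepithelial cells, Krt1 with Krt10 in the differentiating epidermis. Other pairs build the hair root sheath, the hair shaft and nails. In the mammary gland the luminal and basal keratins are the usual markers of the inner and outer layers of the ducts, while skin keratins are not part of the duct. In RefSeq, 22 of the 44 genes lie on chromosome 11 and 22 on chromosome 15, in clusters where neighbours are other keratins. Krt18 is the exception among type I genes in lying on chromosome 15, next to Krt8.

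Promoters from RefSeq (build GRCm38.p6) were available for 31 of the 44 keratins, each holding 250 bases before and 50 bases after the annotated start. Printed here are those of 3 luminal keratins, of Krt77, an epidermal keratin that differed between groups, and of Krt71, a root sheath keratin that showed no called difference. Each runs 5′ to 3′ on the gene's strand and is cut at 25 bases after the start. Capitals mark matches on either strand to the TATA box TATAAA and to GGTCA, an arm of the palindrome bound by the estrogen receptor.
Krt8: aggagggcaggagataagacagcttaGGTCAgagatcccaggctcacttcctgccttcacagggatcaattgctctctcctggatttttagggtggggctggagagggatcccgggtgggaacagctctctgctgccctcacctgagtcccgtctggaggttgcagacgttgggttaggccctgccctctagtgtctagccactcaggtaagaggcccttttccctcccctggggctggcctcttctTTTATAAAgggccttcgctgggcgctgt
Krt18: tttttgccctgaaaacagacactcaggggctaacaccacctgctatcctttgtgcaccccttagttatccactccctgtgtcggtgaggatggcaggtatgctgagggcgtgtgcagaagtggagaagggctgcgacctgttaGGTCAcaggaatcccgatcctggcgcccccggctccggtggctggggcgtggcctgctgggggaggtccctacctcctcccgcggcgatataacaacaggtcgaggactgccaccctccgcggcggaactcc
Krt7: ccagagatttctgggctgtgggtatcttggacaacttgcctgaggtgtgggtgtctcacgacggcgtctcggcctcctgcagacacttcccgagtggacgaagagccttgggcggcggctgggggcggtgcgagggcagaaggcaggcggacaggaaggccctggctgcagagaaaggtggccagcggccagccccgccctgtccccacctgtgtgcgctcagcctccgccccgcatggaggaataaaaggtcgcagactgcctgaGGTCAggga
Krt77: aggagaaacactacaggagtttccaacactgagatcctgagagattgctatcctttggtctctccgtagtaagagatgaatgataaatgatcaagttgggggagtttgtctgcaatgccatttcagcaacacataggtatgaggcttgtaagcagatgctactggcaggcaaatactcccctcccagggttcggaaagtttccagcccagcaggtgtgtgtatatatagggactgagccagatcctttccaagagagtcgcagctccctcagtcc
Krt71: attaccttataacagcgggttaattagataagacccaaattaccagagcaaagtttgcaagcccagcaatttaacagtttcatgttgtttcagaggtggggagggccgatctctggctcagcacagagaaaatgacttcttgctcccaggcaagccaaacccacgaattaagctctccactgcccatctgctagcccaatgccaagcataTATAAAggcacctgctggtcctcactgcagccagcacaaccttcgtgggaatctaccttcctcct
The Krt8 stretch is chr15:102004318-102004592 on the minus strand, that of Krt18 is chr15:102027966-102028240 on the plus strand, and that of Krt7 is chr15:101412153-101412427 on the plus strand. The Krt77 stretch is chr15:101869681-101869955 on the minus strand and that of Krt71 is chr15:101743073-101743347 on the minus strand. Counted from the annotated start, GGTCA begins at position -224 in Krt8, -107 in Krt18 and 17 in Krt7. GGTCA was present in 14 of the 31 keratin promoters (45.2%), beside 40.5% of all 32851 RefSeq promoters in the table. By class it was in 3 of 3 luminal promoters with an entry and in 3 of 3 of the keratins outside the classes. It was in 2 of 3 of mucosa and cornea, 1 of 2 basal and 1 of 5 epidermal promoters. Of the hair keratins it was in 1 of 8 root sheath and 3 of 7 hair shaft and nail promoters. The whole palindrome GGTCANNNTGACC was in 0 of the 31 and in 0.07% of all promoters. TATAAA was in 17 of the 31 (54.8%), beside 13.6% of all, and its presence differed between classes. It was found in 7 of 8 root sheath promoters and 5 of 7 hair shaft and nail promoters, but in 1 of 3 luminal, 0 of 2 basal and 1 of 5 epidermal promoters. In Krt8 overlapping matches on both strands span the annotated start, and in Krt71 the match begins at position -40. The AP-1 site TGANTCA was in 1 of 31 keratin promoters against 7.81% of all, and the GC box GGGCGG in 2 of 31 against 35.7%. These are matches of letters in a short window, not measured binding sites.

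Values are log2 intensities, so a difference of 1 is a doubling of signal. They are compared between arrays for the same gene only, since probes of different genes bind with different strength. The lower quartile of all genes on an array lay between 4.92 and 5.05. A gene under it was treated as dim, and its differences are compressed by the background. In the keratin family 16 members were under it on all 12 arrays, 17 were above it on all and 11 were in between. Among the skin keratins these numbers were 12, 11 and 3. The spread over the 12 arrays exceeded 1 for 14 keratins, of which 8 were the luminal and basal keratins.

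The labels were first checked on Ccnd1 itself and on Greb1, a direct target of the estrogen receptor. Ccnd1 lay between 7.24 and 7.68 on the 6 knockout arrays and between 8.50 and 10.82 on the 6 wildtype arrays, a difference of -1.93 (two-sided exact permutation p = 0.00217, the smallest the 924 arrangements allow). The knockout arrays thus kept some signal on the Ccnd1 probes. Greb1 read 3.40, 3.82 and 3.98 in wildtype placebo and 10.05, 9.38 and 9.25 in wildtype estradiol. In the knockout it read 4.14, 4.64 and 3.82 on placebo and 8.76, 8.77 and 8.32 on estradiol. Greb1 was thus high on every estradiol array of both genotypes, and both genes went with the labels.

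**Figure D1:**
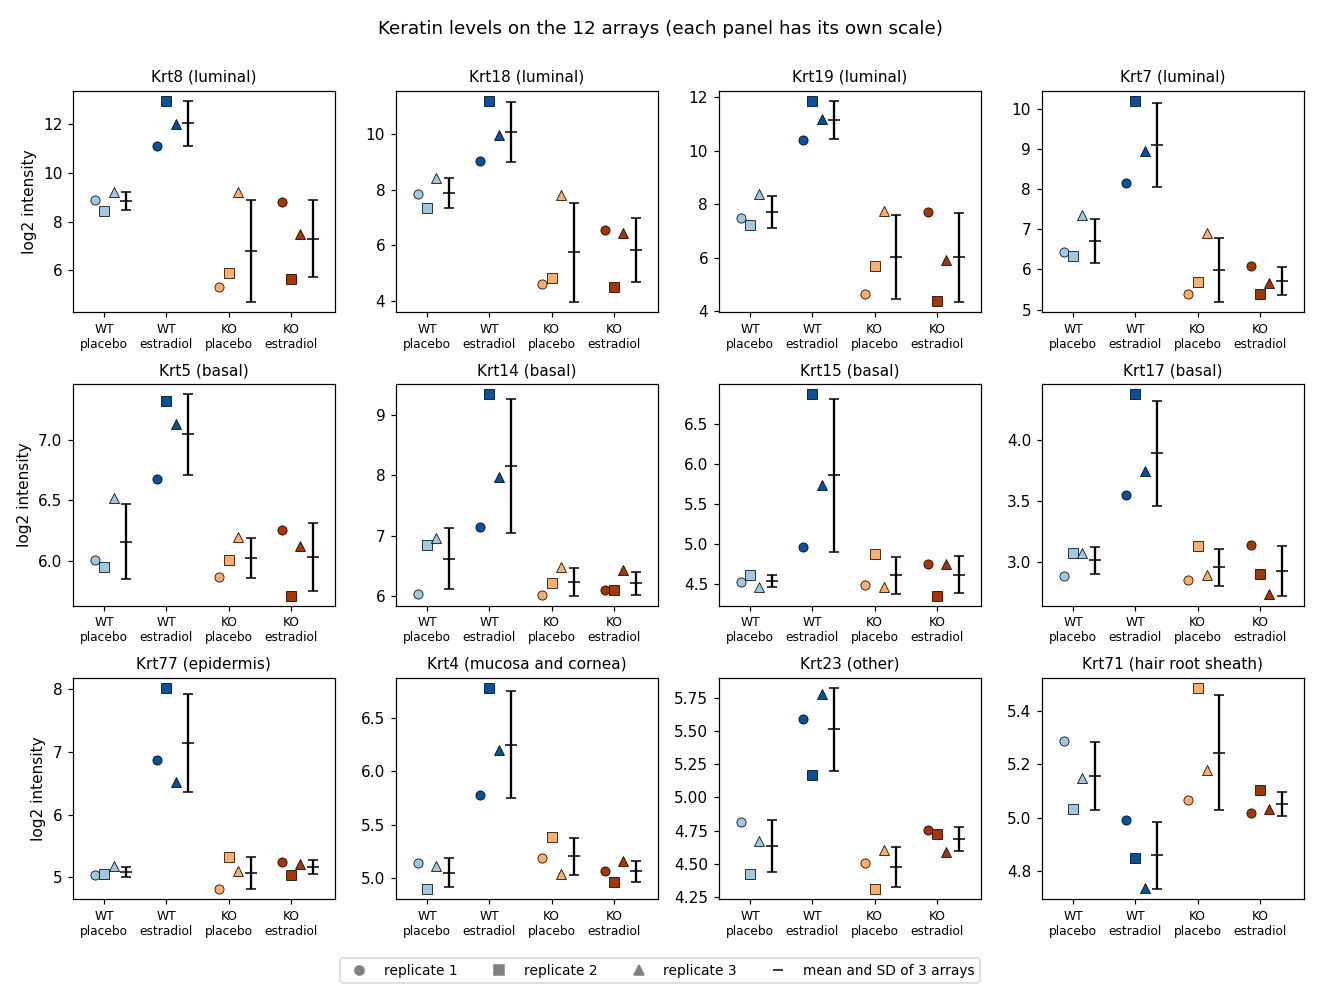
Log2 intensity (vertical axis, own scale in each panel) of the 8 luminal and basal keratins, the 3 other keratins called in a comparison, and Krt71, in the 4 groups (horizontal axis). Symbols are single arrays by replicate, and black bars give the mean and SD of 3 arrays. The 3 wildtype estradiol arrays lie above the 3 of wildtype placebo in every panel but that of Krt71, where they lie below.

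The luminal keratins were highest in wildtype glands on estradiol and lowest in knockout glands, and they spread widely among knockout animals. Krt8, the type II keratin of simple epithelia, read 8.89, 8.44 and 9.21 in wildtype placebo and 11.10, 12.96 and 12.02 in wildtype estradiol. In the knockout it read 5.32, 5.89 and 9.20 on placebo and 8.79, 5.65 and 7.48 on estradiol. The groups of wildtype mice did not overlap, whereas placebo replicate 3 of the knockout stood at the level of wildtype placebo and the other two lay more than 2 log2 units below. Krt8 was 3.18 ± 1.02 (SE) higher on estradiol in wildtype, a 9.09-fold difference that did not pass the adjusted threshold of 0.05 (adjusted p = 0.172). The same difference in the knockout was 0.51 ± 1.02 (adjusted p = 0.915), with a 95% interval of -1.76 to 2.77 that includes large differences of either sign.

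Krt18, the type I partner of Krt8, read 7.86, 7.36 and 8.42 in wildtype placebo and 9.05, 11.22 and 9.98 in wildtype estradiol. It read 4.61, 4.80 and 7.80 in knockout placebo and 6.54, 4.50 and 6.44 in knockout estradiol. Replicates 1 and 2 of knockout placebo and replicate 2 of knockout estradiol were thus under the lower quartile of their arrays, while no wildtype array was. Its estradiol difference was 2.20 ± 0.89 (SE; adjusted p = 0.302) in wildtype and 0.09 ± 0.89 (adjusted p = 0.981) in the knockout.

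Krt19, a type I keratin that pairs with Krt8 in luminal cells, read 7.50, 7.21 and 8.37 in wildtype placebo and 10.40, 11.84 and 11.18 in wildtype estradiol. It read 4.64, 5.70 and 7.73 in knockout placebo and 7.72, 4.40 and 5.92 in knockout estradiol. As for Krt18, replicate 1 of knockout placebo and replicate 2 of knockout estradiol were under the lower quartile. Krt19 was 10.9-fold higher on estradiol in wildtype (3.45 ± 0.90, adjusted p = 0.0932), the largest estradiol difference of the 44, and it did not pass the threshold. In the knockout the difference was -0.01 ± 0.90 (adjusted p = 0.998).

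Krt7, a type II keratin of glandular and ductal epithelium, read 6.45, 6.34 and 7.35 in wildtype placebo and 8.14, 10.20 and 8.95 in wildtype estradiol. It read 5.39, 5.69 and 6.90 in knockout placebo and 6.09, 5.39 and 5.67 in knockout estradiol. Its estradiol difference in wildtype, 2.39 ± 0.54 (adjusted p = 0.0561), came close to the threshold, and that in the knockout was -0.28 ± 0.54 (adjusted p = 0.911). Over the 4 luminal keratins the median estradiol difference was 2.79 in wildtype and 0.04 in the knockout, beside 0.01 over all genes in both. The knockout median changed sign with the array left out, from -0.53 without placebo replicate 1 to 0.98 without placebo replicate 3, and was -0.75 with array weights. Krt8 itself turned from 0.51 to -0.24 without placebo replicate 1.

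Under estradiol, Krt19 and Krt7 fell below wildtype in the knockout. Krt19 differed by -5.13 ± 0.90 (SE; adjusted p = 0.0274) and Krt7 by -3.38 ± 0.54 (adjusted p = 0.0193). Krt8 differed by -4.72 ± 1.02 (adjusted p = 0.059) and Krt18 by -4.26 ± 0.89 (adjusted p = 0.0549). All 4 were lower in the knockout without overlap of the arrays, beside 11.8% of all genes. The median of the 4 was -4.49 beside 0.03 over all genes. On placebo the 4 differed in the same direction with a median of -1.86, but knockout replicate 3 overlapped the wildtype arrays for each gene and no difference was called (adjusted p = 0.9999 for all 4). Without that array the median was -2.85, without knockout placebo replicate 1 it was -1.14, and with array weights it was -0.67. In bulk tissue, fewer cells of a type and less RNA per cell cannot be told apart.

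The basal keratins were also highest in wildtype glands on estradiol, by smaller steps, and showed little spread elsewhere. Krt5, the type II keratin of basal cells, read 6.01, 5.95 and 6.52 in wildtype placebo and 6.68, 7.32 and 7.13 in wildtype estradiol. It read 5.87, 6.01 and 6.20 in knockout placebo and 6.26, 5.71 and 6.13 in knockout estradiol, so that the knockout arrays overlapped wildtype placebo, of which replicate 3 was above all 6. Its estradiol difference was 0.88 ± 0.22 (SE; adjusted p = 0.0771) in wildtype and 0.01 ± 0.22 (adjusted p = 0.994) in the knockout.

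Krt14, the type I partner of Krt5, read 6.04, 6.85 and 6.96 in wildtype placebo and 7.14, 9.33 and 7.97 in wildtype estradiol. It read 6.03, 6.21 and 6.49 in knockout placebo and 6.11, 6.11 and 6.43 in knockout estradiol. Wildtype estradiol replicate 2 was the highest array for Krt14 and for each of the other basal keratins. The Krt14 difference was 1.53 ± 0.46 (adjusted p = 0.137) in wildtype and -0.03 ± 0.46 (adjusted p = 0.989) in the knockout. Without wildtype estradiol replicate 2 the wildtype difference was 0.94.

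Krt15, a type I keratin of basal and stem cell layers, was under the lower quartile on 10 of the 12 arrays and read 4.97, 6.87 and 5.75 in wildtype estradiol. On the other 9 arrays it lay between 4.36 and 4.88. Krt17, a type I keratin of myoepithelial and stressed epithelial cells, was under the lower quartile on every array, yet its 3 wildtype estradiol values of 3.55, 4.37 and 3.74 stood above the 2.74 to 3.14 of the others. Their wildtype estradiol differences were 1.33 ± 0.37 (adjusted p = 0.117) and 0.87 ± 0.20 (adjusted p = 0.0577). Without wildtype estradiol replicate 2 that of Krt15 was 0.82.

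No basal keratin was called in any comparison. The median estradiol difference of the 4 was 1.11 in wildtype and -0.01 in the knockout, and the median knockout difference under estradiol was -1.13. Under estradiol all 4 were lower in the knockout without overlap, beside 11.8% of all genes. The adjusted p-values were 0.0578 for Krt5, 0.0826 for Krt14, 0.172 for Krt15 and 0.0534 for Krt17. On placebo the median knockout difference was -0.10, where that of the luminal keratins was -1.86.

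**Figure D2:**
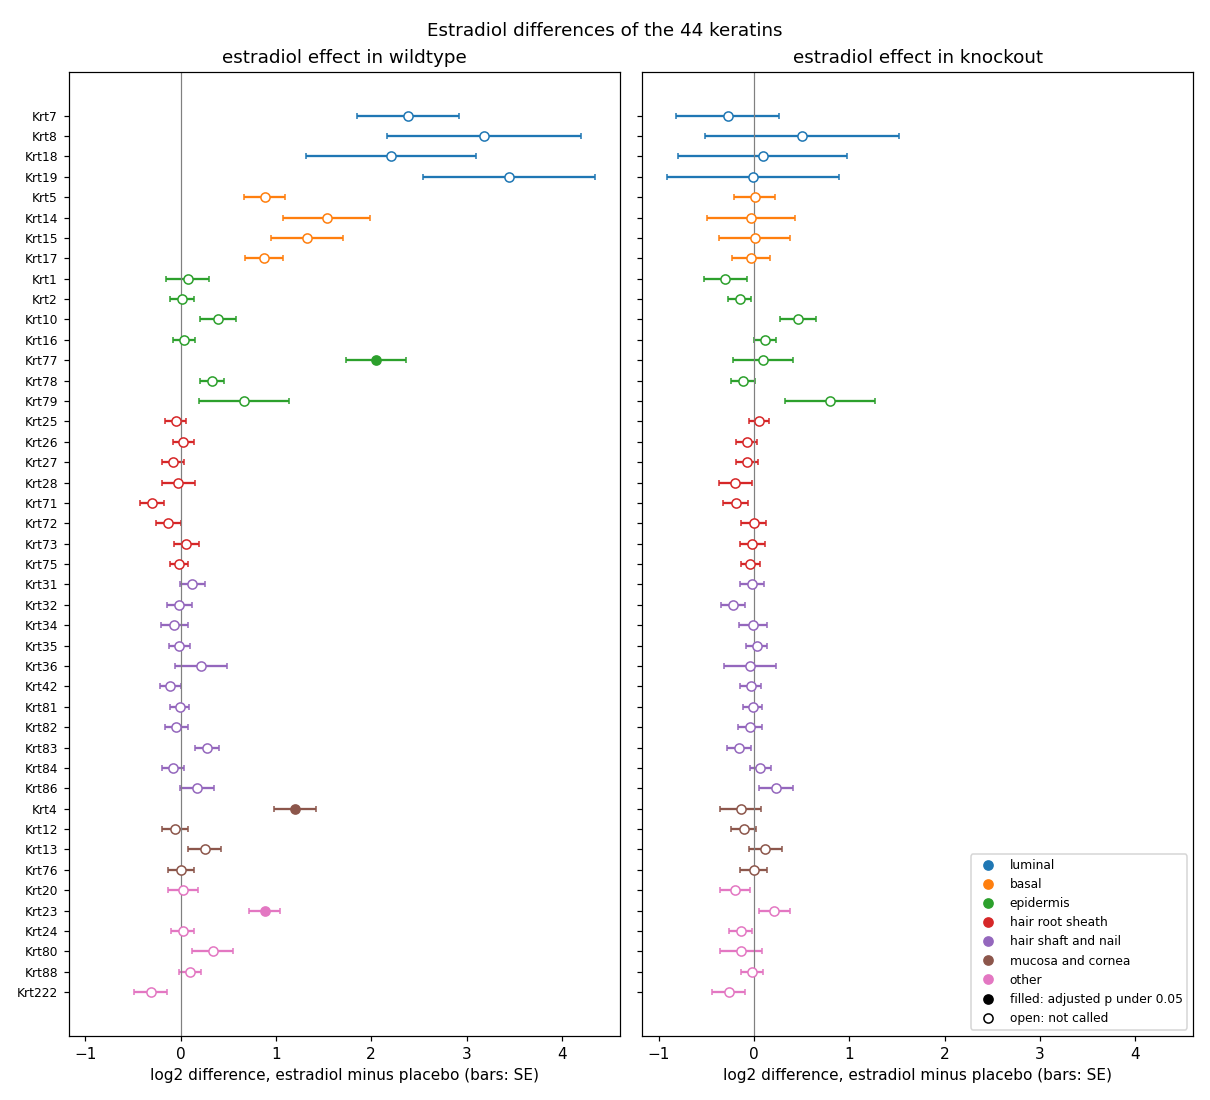
Estradiol minus placebo in log2 units (horizontal axis, bars are the SE of the fit) for the 44 keratins (vertical axis, coloured by class) in wildtype on the left and in the knockout on the right. Filled circles mark adjusted p under 0.05: Krt77, Krt4 and Krt23 in wildtype, none in the knockout. The luminal and basal keratins lie right of 0 in wildtype and spread around 0 in the knockout.

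Across the family, estradiol raised 3 keratins in wildtype glands and lowered none. The 3 were Krt77, Krt4 and Krt23, none of them a luminal or basal keratin. Of all genes 1.88% were called in this comparison, and 1.83% were called higher, so 3 of 44 is a small count. All 8 luminal and basal keratins had unadjusted p-values under 0.05 without a call. Called or not, 14 of the 44 had such a p-value, beside 2450 of the 18193 genes. In 13 keratins the wildtype estradiol arrays all lay above the wildtype placebo arrays, beside 11.9% of all genes. With the 2 that lay below, 15 of 44 did not overlap, beside 17% of all genes. The 13 were the 8 luminal and basal keratins and Krt4, Krt10, Krt23, Krt77 and Krt78.

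Krt77 is an epidermal type II keratin, known in human skin from sweat gland ducts. It read 5.03, 5.06 and 5.17 in wildtype placebo and 6.87, 8.02 and 6.52 in wildtype estradiol, against 4.81, 5.32 and 5.09 in knockout placebo and 5.25, 5.04 and 5.22 in knockout estradiol. Only the wildtype estradiol arrays left the narrow band of 4.81 to 5.32. Krt77 rose by 2.05 ± 0.31 (SE) with estradiol in wildtype, 4.14-fold (adjusted p = 0.0103). In the knockout the difference was 0.10 ± 0.31 (adjusted p = 0.949, 95% interval -0.60 to 0.79). It was the 1 keratin called in the average estradiol effect of both genotypes, where 1.58% of all genes were called. That call was lost in 9 of the 12 fits that leave out 1 array, and after quantile normalisation, after median centring and with the replicate number as a block.

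Krt4, a type II keratin of the inner layers of oral and esophageal mucosa, read 5.14, 4.89 and 5.11 in wildtype placebo and 5.77, 6.78 and 6.20 in wildtype estradiol. The knockout read 5.19, 5.38 and 5.03 on placebo and 5.07, 4.96 and 5.16 on estradiol, again with no overlap between wildtype estradiol and any other group. The rise in wildtype was 1.20 ± 0.22 (adjusted p = 0.0224), and the knockout difference was -0.14 ± 0.22 (adjusted p = 0.891). A dimmer probe set of Krt4 showed a larger wildtype difference of 2.40, from 4.28, 4.67 and 4.17 to 5.95, 7.79 and 6.59.

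Krt23, a type I keratin of glandular epithelia, was dim on 9 arrays and stood above the lower quartile only on the 3 wildtype estradiol arrays, at 5.59, 5.17 and 5.78. In wildtype placebo it read 4.81, 4.42 and 4.67, in knockout placebo 4.51, 4.30 and 4.60 and in knockout estradiol 4.75, 4.72 and 4.59. It differed from the other called keratins in that wildtype estradiol replicate 2 was the lowest of its group. The rise in wildtype was 0.88 ± 0.17 (adjusted p = 0.0289), beside 0.22 ± 0.17 (adjusted p = 0.779) in the knockout.

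These wildtype calls depended on single arrays. No keratin was called without wildtype placebo replicate 1 or without replicate 2. Krt77 alone was called without wildtype estradiol replicate 3. Without wildtype placebo replicate 3 there were 5 calls, and without wildtype estradiol replicate 1 there were 6, Krt7, Krt14, Krt15 and Krt17 among them. Without knockout placebo replicate 1 or knockout estradiol replicate 2 there were 2, Krt4 and Krt77. After centring each array on its median, which shifts this comparison by 0.13, Krt77 alone was called. Over all genes the 342 calls became 107, 100 and 1146 without wildtype placebo replicates 1, 2 and 3. They became 153 without wildtype estradiol replicate 3. They became 235 without knockout placebo replicate 1, 238 without knockout estradiol replicate 2 and 186 after median centring. The calls thus moved over all genes as well. Without wildtype estradiol replicate 1 they fell to 247, while those of keratins rose.

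In the knockout, estradiol changed no keratin by the adjusted test, where 0.0989% of all genes were called. At an unadjusted p under 0.05 there was 1, beside 1513 of the 18193 genes. It was Krt10, the type I keratin of suprabasal epidermis. Krt10 read 6.71, 7.32 and 7.03 on knockout placebo and 7.35, 7.51 and 7.58 on knockout estradiol, a difference of 0.46 ± 0.19 (SE; adjusted p = 0.546). The wildtype difference was close to it, 0.40 ± 0.19 (adjusted p = 0.396). Krt10 was higher without overlap and Krt32, a hair cuticle keratin, lower without overlap (-0.22), 2 of 44 keratins beside 13.5% of all genes.

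Genotype under estradiol gave 5 keratins lower in the knockout and none higher. Of all genes 1.12% were called, and 1.09% were called lower. Beside Krt19 and Krt7 these were Krt77 at -1.97 ± 0.31 (SE; adjusted p = 0.0193), Krt4 at -1.19 ± 0.22 (adjusted p = 0.0331) and Krt23 at -0.83 ± 0.17 (adjusted p = 0.0478). This comparison shares its wildtype estradiol arrays with the estradiol effect in wildtype. In 12 keratins every knockout array lay under every wildtype array, beside 11.8% of all genes. The 12 were the 8 luminal and basal keratins, Krt4, Krt23, Krt77 and Krt80. In 3, Krt27, Krt71 and Krt84, the knockout arrays lay above, by 0.15, 0.19 and 0.26. The 15 stand beside 22.3% of all genes.

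The genotype calls also moved with single arrays. There were 0 without knockout estradiol replicate 2 or 3 and 1 without replicate 1 (Krt19) or without wildtype estradiol replicate 3 (Krt77). There were 2 without wildtype placebo replicate 2 (Krt7 and Krt77). Krt7, Krt19 and Krt77 were the 3 left without wildtype placebo replicate 1 or knockout placebo replicate 1, and after median centring. Without wildtype estradiol replicate 1 there were 8. Over all genes the 204 calls for genotype under estradiol became 32, 0 and 58 without knockout estradiol replicates 2, 3 and 1. They became 49 without wildtype estradiol replicate 3 and 210 without its replicate 1. Without wildtype placebo replicates 2 and 1 they became 125 and 163. They became 150 without knockout placebo replicate 1 and 92 after median centring. Calls were thus lost over all genes, not among keratins alone.

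On placebo no keratin was called between the genotypes, and of all genes 0% were called (370 genes had an unadjusted p under 0.05). At that unadjusted level there were 2 keratins, Krt18 (-2.15 ± 0.89) and Krt24, a type I keratin outside the classes here (0.31 ± 0.12). Krt2, Krt20, Krt24 and Krt78 were higher in the knockout without overlap, by 0.22 to 0.31, 4 of 44 beside 6.71% of all genes. The average genotype effect over both treatments called no keratin either, with 0% of all genes called.

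The test of whether the estradiol effect differs between genotypes called no keratin, and of all genes 0.011% were called. At an unadjusted p under 0.05 there were 11 keratins, beside 1170 of the 18193 genes. Krt77 and Krt4 had the smallest adjusted p-values, 0.263 for Krt77 (knockout response minus wildtype response -1.95 ± 0.44, SE) and 0.265 for Krt4 (-1.34 ± 0.31). The luminal keratins had larger and less certain values, from -2.11 ± 1.26 for Krt18 (adjusted p = 0.856) to -3.46 ± 1.27 for Krt19 (adjusted p = 0.661). All 4 basal keratins were among the 11, from -0.88 ± 0.31 for Krt5 (adjusted p = 0.621) to -1.56 ± 0.65 for Krt14 (adjusted p = 0.741). A response in wildtype that differs from that in the knockout was therefore not shown by this test for any keratin.

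**Figure D3:**
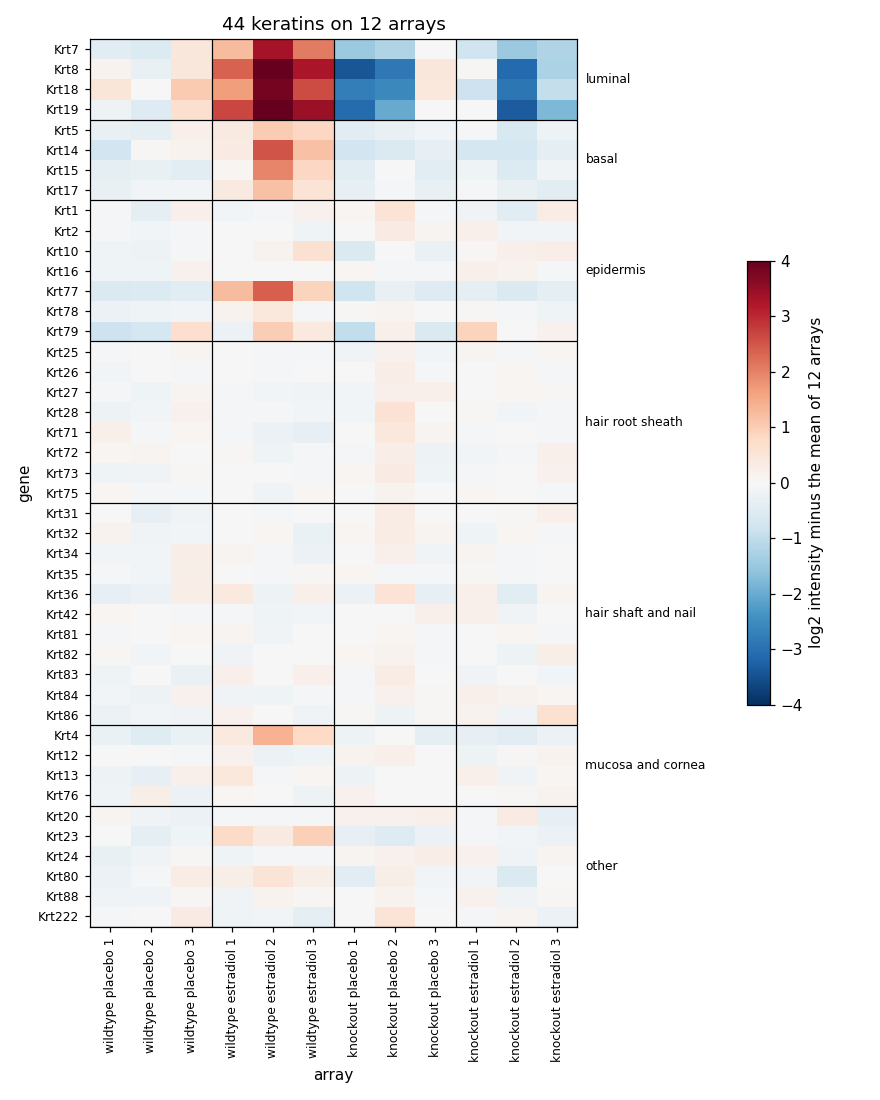
Each of the 44 keratins (rows, by class) on each of the 12 arrays (columns, by group), as log2 intensity minus that gene's mean over the 12 arrays, from blue (lower) to red (higher) on a scale of -4 to 4. The luminal rows carry the widest colours, red on the 3 wildtype estradiol arrays and blue on several knockout arrays. Apart from Krt77 and Krt79 the skin rows are pale.

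Most skin keratins stayed near their own means, and 12 of the 26 were under the lower quartile on every array. Krt77, Krt79 and Krt10 varied more, with ranges over the 12 arrays of 3.21, 1.96 and 1.21. Over the 26 the median estradiol difference was 0.004 in wildtype and -0.03 in the knockout. The median genotype difference was 0.09 on placebo and 0.04 on estradiol. Median centring moved the wildtype estradiol median to -0.12 and the genotype median under estradiol to 0.20, and without the dimmest 40% of genes, which leaves 6 of the 26, the wildtype estradiol median was 0.30 and the genotype median -0.05. No direction is read from either. By class, the median estradiol difference in wildtype was 0.33 for the 7 epidermal keratins, all 7 above 0, beside 0.01 over all genes. It was -0.04 for the root sheath keratins and -0.01 for those of hair shaft and nail. In the knockout the epidermal median was 0.10, with 4 of the 7 above 0. Krt77 was the 1 skin keratin called.

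Among the 7 epidermal keratins, Krt79, a type II keratin of the hair canal and sebaceous duct, varied most after Krt77. It read 6.52, 6.62 and 8.01 in wildtype placebo, 7.10, 8.32 and 7.73 in wildtype estradiol, 6.36, 7.54 and 6.77 in knockout placebo and 8.21, 7.32 and 7.52 in knockout estradiol. The groups overlapped, and the estradiol differences were 0.66 ± 0.47 (adjusted p = 0.608) in wildtype and 0.80 ± 0.47 (adjusted p = 0.704) in the knockout. Krt78 differed by 0.33 ± 0.13 in wildtype (adjusted p = 0.263) and by -0.11 ± 0.13 in the knockout. Krt1, Krt2 and Krt16, keratins of suprabasal or stressed epidermis, were under the lower quartile on all 12 arrays. Their wildtype estradiol differences lay between 0.02 and 0.08.

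Root sheath keratins form the sleeve that guides the growing hair. Krt71, of the inner root sheath, read 5.29, 5.03 and 5.15 in wildtype placebo and 4.99, 4.85 and 4.74 in wildtype estradiol. In the knockout it read 5.07, 5.48 and 5.18 on placebo and 5.02, 5.10 and 5.03 on estradiol. It was lower on wildtype estradiol without overlap, by -0.30 ± 0.13 (SE; adjusted p = 0.336), which was not called. Krt72 differed by -0.13 in wildtype, and Krt25, Krt28 and Krt73, under the lower quartile on all arrays, by -0.05, -0.02 and 0.06. Krt28 owed its range to knockout placebo replicate 2, at 4.17 where the other 11 arrays lay between 3.39 and 3.76. The 8 together spanned -0.30 to 0.06 in wildtype and -0.20 to 0.06 in the knockout.

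The hair shaft and nail keratins gave estradiol differences of -0.11 to 0.28 in wildtype and -0.22 to 0.23 in the knockout. Krt83, of the hair cortex, was at the upper end in wildtype (0.28 ± 0.12, adjusted p = 0.366) and differed by -0.15 ± 0.12 in the knockout. Krt42, expressed in nail, was bright and flat by the probe set used, between 7.97 and 8.33 on the 12 arrays. The other Krt42 probe set was much dimmer, between 5.17 and 5.57. Krt36 varied most, between 5.37 and 6.33, with its highest value in knockout placebo replicate 2, its lowest in knockout estradiol replicate 2, and groups that overlapped. Krt86, dim on every array, was highest in knockout estradiol replicate 3 at 4.81, and Krt31 lay between 5.64 and 6.28.

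In the remaining classes, Krt12, Krt13 and Krt76 of cornea and mucosa were under the lower quartile on all arrays, with wildtype estradiol differences of -0.06, 0.25 and 0.00. Krt80, a type II keratin of many epithelia, differed by 0.34 ± 0.22 in wildtype (adjusted p = 0.569) and by -0.56 ± 0.22 between genotypes on estradiol (adjusted p = 0.292). Krt222, an atypical member, was lower on wildtype estradiol without overlap, by -0.31 ± 0.17 (adjusted p = 0.487), and differed by -0.27 ± 0.17 in the knockout.

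Krt77 lies between Krt1 and Krt76, both under the lower quartile on all arrays, and Krt4 lies between Krt76 and Krt79. None of these neighbours was called in any comparison. Krt8 and Krt18, which adjoin, did vary together. Krt6a, a wound and stress keratin next to Krt5 that the symbol rule leaves out, read 5.79, 5.78 and 5.97 in wildtype placebo and 6.69, 8.12 and 7.08 in wildtype estradiol. It rose by 1.45 ± 0.28 (adjusted p = 0.0351) in wildtype and read 5.97, 5.89 and 5.80 and 5.73, 5.55 and 5.57 in knockout placebo and estradiol. A dimmer probe set of Krt6a showed a larger wildtype difference of 4.27, from 4.51, 4.38 and 4.32 to 7.50, 9.83 and 8.69, and one of -3.94 between genotypes on estradiol. The last probe set gave 1.24 and -1.16. Krt6b, a near copy of Krt6a, was under the lower quartile on all arrays, between 3.87 and 4.45.

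Where partners are expressed in the same cells, their levels can be compared array by array. Over the 12 arrays Krt8 and Krt18 correlated with Pearson r = 0.983 and Spearman rho = 0.979. Without the 2 arrays farthest from the median of Krt8, r was 0.970. Krt8 and Krt19 gave r = 0.987 and rho = 0.986 (0.979 without 2 arrays), and Krt7 and Krt19 gave r = 0.960 and rho = 0.965 (0.949 without 2 arrays). For all 3 pairs the permutation p was 2e-05 for r and for rho, the smallest that 100000 resamples can give, and 4e-05 after adjustment over the 6 pairs. Since groups differ in level, the deviations from group means were also compared. They gave r = 0.964 for Krt8 and Krt18, 0.965 for Krt8 and Krt19 and 0.798 for Krt7 and Krt19, each with an exact permutation p of 0.000772 (adjusted p = 0.00154), the smallest that the 1296 arrangements within groups allow. The luminal keratins thus varied together from animal to animal within the groups as well.

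Krt5 and Krt14 gave r = 0.912 (permutation p = 0.0002, adjusted p = 0.0003) and rho = 0.804 (p = 0.00274, adjusted p = 0.00411). Without the 2 farthest arrays, both of wildtype estradiol, r was 0.729, and the deviations from group means gave r = 0.677 (exact permutation p = 0.0702, adjusted p = 0.0842). Within groups the relation was therefore not shown for the basal pair. Krt1 and Krt10 gave r = 0.129 (permutation p = 0.689) and rho = 0.077 (p = 0.816), with r = 0.334 without 2 arrays and r = 0.571 for the deviations (exact permutation p = 0.0509, adjusted p = 0.0764). Krt1 was under the lower quartile on all 12 arrays, between 3.32 and 4.32, so this pair cannot tell whether the partners go together. The root sheath pair Krt71 and Krt27 gave r = 0.694 (permutation p = 0.0114, adjusted p = 0.0137) and rho = 0.711 (p = 0.0112, adjusted p = 0.0134). That r was 0.504 without 2 arrays and 0.579 for the deviations (exact permutation p = 0.248), with Krt27 under the lower quartile throughout.

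**Figure D4:**
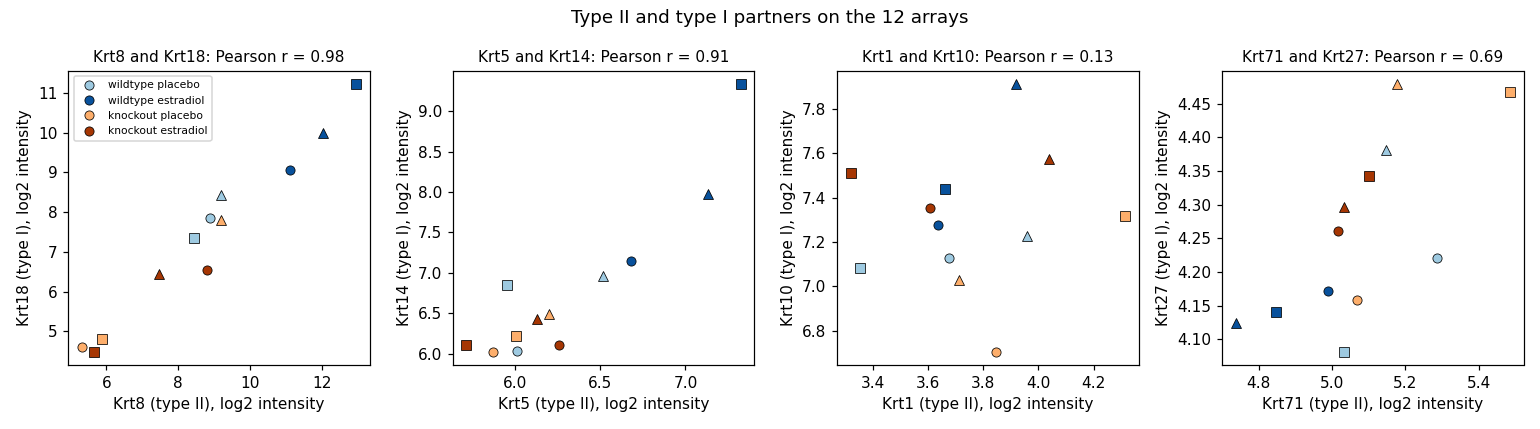
Log2 intensity of a type I keratin (vertical axis) against its type II partner (horizontal axis) on the 12 arrays, coloured by group and shaped by replicate, for Krt8 and Krt18, Krt5 and Krt14, Krt1 and Krt10, and Krt71 and Krt27. The Krt8 and Krt18 points follow a line from 5.32 to 12.96 of Krt8 (r = 0.98), while Krt1 and Krt10 do not (r = 0.13). Krt1 was under the lower quartile on all 12 arrays.

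Genes of the same cell layers, other than keratins, were read beside the family. Of 21 measured luminal epithelial genes, 1 rose with estradiol in wildtype: Prom1, a membrane protein of luminal cells, by 2.07 ± 0.33 (SE; adjusted p = 0.0138). That is 1 of 21 beside 1.83% of all genes called higher, and the median of the 21 was 1.19 beside 0.01 over all genes. In the knockout none was called and the median was -0.07. Under estradiol 6 of the 21 were lower in the knockout, beside 1.09% of all genes, with a median of -1.96 beside 0.03. They included Elf5, a transcription factor of luminal progenitors (-4.57 ± 0.85, adjusted p = 0.0359), and the epithelial splicing factor Esrp1 (-3.67 ± 0.58, adjusted p = 0.0193). The junction genes Cldn7 (-3.95 ± 0.61, adjusted p = 0.0193) and Cdh1 (-3.79 ± 0.62, adjusted p = 0.021) were also among them.

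On placebo no luminal gene was called, and the 2 with the smallest p, Foxa1 and Elf5, differed by -2.66 ± 0.97 and -2.22 ± 0.85. Foxa1, a pioneer factor of hormone-sensing luminal cells, read 8.53, 7.93 and 8.62 in wildtype placebo and 4.31, 4.46 and 8.32 in knockout placebo. On estradiol it read 8.04, 9.87 and 8.57 in wildtype, which overlapped wildtype placebo, and 5.51, 4.59 and 6.47 in the knockout. Knockout placebo replicate 3 was at the wildtype level for Foxa1 as it was for Krt8. Knockout estradiol replicate 1 was high for Krt8 (8.79) and Krt19 (7.72), yet Cdh1 there was 3.71, its lowest value of the 12.

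Of 16 measured basal and myoepithelial genes, 7 rose with estradiol in wildtype, beside 1.83% of all genes, with a median of 1.02 beside 0.01 over all genes. Among them were the oxytocin receptor Oxtr (4.46 ± 0.65, adjusted p = 0.00837) and the transcription factor Snai2 (1.67 ± 0.21, adjusted p = 0.00486). The contractile genes Cnn1 (1.97 ± 0.33, adjusted p = 0.0177) and Acta2 (1.59 ± 0.21, adjusted p = 0.00522) were there too. In the knockout none was called and the median was -0.03, although Oxtr still differed by 3.85 ± 0.65 (adjusted p = 0.0995) and Snai2 by 1.22 ± 0.21 (adjusted p = 0.0996). Under estradiol 6 of the 16 were lower in the knockout, beside 1.09% of all genes, among them Cnn1 (-2.15 ± 0.33), Col17a1 (-1.64 ± 0.25), Itgb4 (-1.61 ± 0.32) and Acta2 (-1.56 ± 0.21), with adjusted p-values between 0.0151 and 0.046. Col17a1 and Itgb4 build the hemidesmosome that holds basal keratins to the basement membrane.

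Desmosome and hemidesmosome proteins anchor keratin filaments at the cell border. Col17a1 and Itgb4, counted above with the basal genes, were not in the list of 16 read here. None of 16 measured was called for estradiol in wildtype or in the knockout, beside 1.88% and 0.0989% of all genes. The medians were 0.28 and -0.12. Under estradiol 1 was lower in the knockout, beside 1.09% of all genes. That gene, the desmosome linker Dsp, read 6.14, 5.86 and 6.38 in wildtype placebo and 7.58, 9.52 and 8.22 in wildtype estradiol. It read 3.50, 3.30 and 5.85 in knockout placebo and 4.82, 3.59 and 4.60 in knockout estradiol, so its low and high knockout placebo arrays were those of Krt8. The genotype difference on estradiol was -4.11 ± 0.68 (adjusted p = 0.0227), and the estradiol difference in wildtype was 2.31 ± 0.68 (adjusted p = 0.13). Pkp1, a plakophilin of stratified epithelia, differed by 0.999 ± 0.28 in wildtype (adjusted p = 0.119). Of 16 intermediate filament genes outside the keratins none was called, which is near the shares over all genes for so short a list. The smallest p-values in wildtype were those of the nuclear lamin Lmna (0.58 ± 0.26) and the muscle filament Des (-0.93 ± 0.50).

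Many skin genes other than keratins were dim, and none was called. Of all genes 1.88% were called for estradiol in wildtype and 1.12% for genotype under estradiol. For lists this short, 0 calls is near those shares and is not read as a result about skin genes. Of 29 measured epidermal genes 14 were under the lower quartile on every array, and of 18 measured hair follicle genes 9 were. The mean of the epidermal genes lay between 4.67 and 4.81 in wildtype placebo, 4.76 and 4.85 in wildtype estradiol, 4.73 and 4.90 in knockout placebo and 4.77 and 4.86 in knockout estradiol. The smallest p-values in wildtype were those of Dmkn (0.68 ± 0.19, adjusted p = 0.104) and Sprr1a (0.93 ± 0.27, adjusted p = 0.123), both of the cornifying layer. Among hair follicle genes they were those of Padi3 (0.96 ± 0.23, adjusted p = 0.0723) and Msx2 (0.69 ± 0.18, adjusted p = 0.0968). The part of skin tissue in the Krt77 values was not tested.

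Other tissue in the gland varied widely from animal to animal. As the mean of a list's log2 values centred over the 12 arrays, 8 lymphocyte genes read 2.65, 1.99 and -2.22 in wildtype placebo and -2.43, 0.96 and -2.72 in wildtype estradiol. They read 2.19, -2.23 and 2.23 in knockout placebo and -2.59, 1.75 and 0.41 in knockout estradiol. The 10 skeletal muscle genes read 1.96, 3.53 and -1.01, then 1.27, -0.28 and 0.94, then -3.23, 1.93 and -3.65, then 2.51, -2.75 and -1.22 in the same order. The 8 adipocyte genes stayed between -0.44 and 0.44. On this scale the luminal keratins read -0.01, -0.34 and 0.65 in wildtype placebo, 1.99, 3.88 and 2.86 in wildtype estradiol, -2.69, -2.16 and 0.23 in knockout placebo and -0.40, -2.70 and -1.30 in knockout estradiol. The part of these tissues in the keratin results was not tested.

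**Figure D5:**
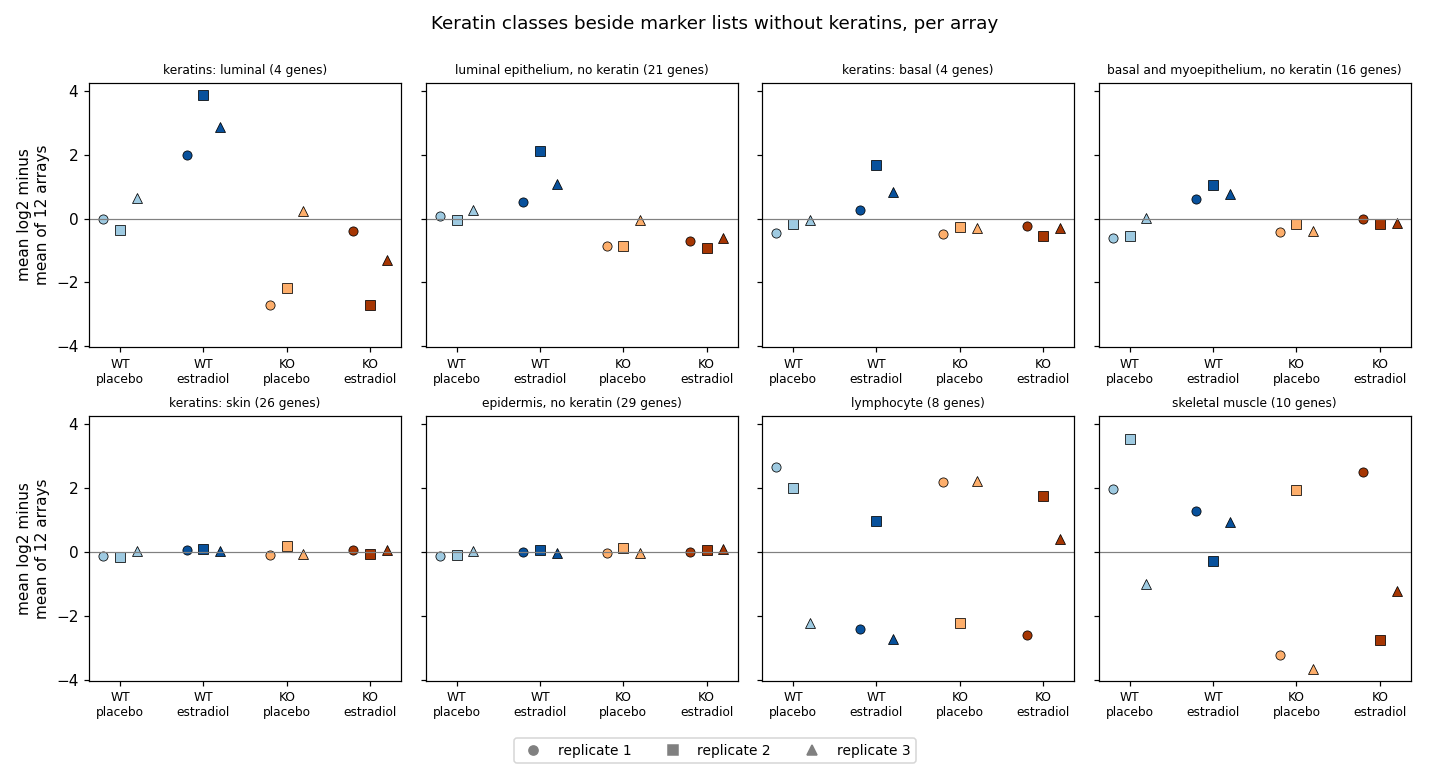
Mean log2 intensity minus the mean of the 12 arrays (vertical axis) for the luminal, basal and skin keratins and for marker lists without keratins, in the 4 groups (horizontal axis), with 1 symbol per array. The mean of the 4 luminal keratins spans -2.70 to 3.88, while the mean of the 26 skin keratins stays between -0.16 and 0.19. Single skin keratins can vary more than their mean, as Krt77 did, from 4.81 to 8.02. The lymphocyte and muscle panels show arrays on both sides of 0 in every group.

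Of the 44 keratins 8 had more than 1 probe set. The other 2 of Krt8 gave wildtype estradiol differences of 3.29 and 3.16, beside the 3.18 of the one used. For Krt14 the other 2 gave 1.23 and 0.26, so they disagree. For Krt17 the second gave 0.16 where the one used gave 0.87, and both were dim. A further probe set that matches both Krt14 and Krt17 was flat, between 5.12 and 5.55, and was left out because it names 2 genes. The luminal marker Epcam shows how the choice matters: the brightest probe set was flat (7.31 to 7.83), whereas the other differed by 2.07 with estradiol in wildtype and by -3.28 between genotypes on estradiol. Keratins are close in sequence, and signal shared between near copies cannot be told apart here.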

How the data were processed

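Total RNA of 12 mammary glands was labelled with biotin and hybridised to Affymetrix arrays of 45101 probe sets. The deposited values are log2 intensities, which the authors made with RMA and limma 2.9.16, per the submitters' processing notes, with the genome build not given in the sources used here. Arrays have no depth, and their number limits the precision. A platform table gave 34945 probe sets 1 gene, and the brightest probe set stood for each of 18193 genes. A limma fit (3.58.1, R 4.3.3) of 4 group means with eBayes (8 residual and 2.15 prior degrees of freedom) gave 7 comparisons. Placebo is subtracted from estradiol, and wildtype from knockout. Two-sided p-values were adjusted over the 18193 genes (Benjamini-Hochberg), with genes called at an adjusted p under 0.05. Correlations used permutations in scipy 1.17.1.

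The keratins and lists were chosen with earlier results of these data known. Named with values were the luminal and basal classes, any called keratin, and in each other class those with the smallest p or widest range. Each list gives at most 4 called genes, else the 2 of smallest p, and Ccnd1, Greb1, Krt6a and Krt6b were added. Scripts were tested on simulated data. No reference table of proteins was used.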

Additional observations from a re-analysis of the deposited data

How the results depend on the processing

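The count of keratins called depended on the settings. No called difference changed sign under any setting run, but of the 44 keratins 20 differences without a call did so for estradiol in wildtype, 25 in the knockout, 22 for genotype on placebo and 20 on estradiol. The largest was that of Krt8 in the knockout (0.51), and outside that comparison the largest was 0.26, for Krt36 in the interaction. For estradiol in wildtype the 3 calls became 0 without the dimmest 40% of genes, which leaves 13 keratins and none of the 3. They became 1 after median centring and 14 with array weights, an estimate that stopped before it converged. With only the groups compared they became 0, and at an adjusted p under 0.10 they became 7. Over all genes the 342 calls became 235, 186, 4702, 71 and 715 under these settings in turn. For genotype under estradiol the 5 became 2, 3, 7, 0 and 10 under the same settings. Over all genes the 204 calls there became 119, 92, 428, 47 and 473. The average estradiol effect went from 1 call to 2 with the mean of all probe sets, 0 without dim genes, 0 after quantile normalisation, 0 after median centring, 2 with trend and robust priors, 7 with array weights and 2 at an adjusted p under 0.10. Over all genes the average estradiol effect went from 287 calls to 267, 218, 233, 208, 257, 4835 and 585 in that order. The average genotype effect went from 0 to 1 with array weights, beside 0 to 198 over all genes. Leaving out 1 array at a time gave 0 to 6 calls for estradiol in wildtype, 0 to 8 for genotype under estradiol, 0 to 2 for the average estradiol effect and 0 to 2 for the average genotype effect. Over all genes these ranges were 100 to 1146, 0 to 315, 127 to 1400 and 0 to 66. Estradiol in the knockout, genotype on placebo and the interaction had 0 keratins called under every setting run. With the replicate number as a block, there were 2 for estradiol in wildtype (Krt23 and Krt77), beside 158 of all genes. Genotype under estradiol and the average estradiol effect then had 0 keratins, beside 45 and 134 of all genes. The deviations of same-numbered arrays correlated between -0.74 and 0.66. Differently numbered arrays were not compared, so these values cannot tell whether the numbers mark pairs. For the luminal, basal and called keratins in estradiol in wildtype, genotype under estradiol and the interaction, 206 refitted values kept their side of the threshold, 19 became weaker and 13 stronger. With 1 array left out these numbers were 343, 40 and 13. The r of Krt71 and Krt27 moved to 0.831 after median centring. A gene that a setting leaves out cannot be called under it. The cause of the other changes, also with 1 array left out, was not tested. Dim keratins limit the rest: 16 were under the lower quartile on every array.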
